A study of Mus musculus with 4 samples.

Results

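The genes described here are 10 genes of the hepatic lipid droplet: the coat proteins *Plin2*, *Plin3*, *Plin4* and *Plin5*, the droplet fusion proteins *Cidea*, *Cideb* and *Cidec*, the triglyceride lipase *Pnpla2*, its inhibitor *G0s2*, and the fatty acid transporter *Cd36*. They are listed by their roles at the droplet, and no threshold on a value was applied. They are 10 of 20642 gene symbols in the deposited table, and 9 of them are among the 12705 genes treated as active, that is, genes with reads near the start and on average over 4 normalized reads per kb of gene body. A symbol with several transcripts was represented by the one whose promoter-proximal mean was largest.

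Hepatocytes store surplus fatty acids as triglyceride in cytoplasmic droplets, each a core of neutral lipid under a single layer of phospholipid. Perilipins coat this surface and control the access of lipases, CIDE proteins sit where droplets touch and pass lipid from one droplet to another, and ATGL, the product of *Pnpla2*, removes the first fatty acid of a triglyceride. HDAC3 is the deacetylase of the nuclear receptor corepressor complexes, and loss of it from the liver is known for droplet accumulation in hepatocytes.

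PRO-seq, which labels and sequences RNA at the active site of engaged polymerases in isolated nuclei, was performed on livers of C57BL/6 mice on postnatal day 14. WT mice were *Alb-Cre*+ *Hdac3* +/+ and KO mice were *Alb-Cre*+ *Hdac3* fl/- or fl/fl, so Cre driven by the albumin promoter was present in both groups and only the KO mice carried conditional and null *Hdac3* alleles. There were 2 libraries per genotype (WT1, WT2, KO1 and KO2), each from 20000000 nuclei pooled from the whole livers of several mice, so single mice cannot be compared and p-values measure the spread between pools. Albumin promoter-driven Cre acts in hepatocytes, and the other cells of a KO liver keep their conditional alleles. The null allele of fl/- mice is in all their cells, and how many of the KO mice were fl/- is not given.

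Values are normalized reads, that is, reads multiplied by 1 factor per library. Division by these factors (1 to 1.52) gave whole reads for 100% of 41640 values per library within a tolerance of 0.01, with 16628518 reads on genes in KO2, the shallowest library, and 26190040 in WT2, the deepest. The gene body runs from 1 kb downstream of the transcription start site (TSS) to the transcript end, and the promoter-proximal value is that of the 50 bp window with most reads within 500 bp of the TSS. The promoter-proximal share of reads on genes was 9.38% to 10.3% in WT and 13.6% to 17.0% in KO libraries, and the median promoter-proximal log2 fold change of active genes was 0.56, against -0.09 in gene bodies. *Hdac3* gene body reads were 665 and 648 in WT and 609 and 582 in KO libraries (log2 fold change -0.14 ± 0.13 (SE), limma adjusted p = 0.413). The table sums reads over the whole gene body, so this value does not check the deletion. Calls of genes as up or down needed a limma adjusted p under 0.05 over all active genes and an absolute log2 fold change over 0.6, and fold changes are on the scale of log2(normalized reads + 1).

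The promoters of the genes whose promoter-proximal or gene body reads the results turn on are shown first. Each sequence runs from 250 bases before to 50 after a RefSeq start on GRCm38.p6, 5′ to 3′ on the strand of the gene. Capitals mark matches on either strand to 5 motifs. These are AGGTCA, the core of many nuclear receptor binding sites, the CCAAT box, spelled as its name, the GC box with the letters GGGCGG, the E-box with the letters CACGTG, and the TATA box with the letters TATAAA. *Plin4* (minus strand of chr17:56109733-56110032) and *Plin5* (minus strand of chr17:56117499-56117798) are adjacent genes that fell in both regions. *G0s2* (minus strand of chr1:193273139-193273438) and *Plin2* (minus strand of chr4:86670010-86670309) rose in 1 region each, *Pnpla2* (plus strand of chr7:141454938-141455237) fell in the gene body, and the *Cidec* start shown (minus strand of chr6:113434715-113435014) is the one that the promoter-proximal window does not cover.
Plin4: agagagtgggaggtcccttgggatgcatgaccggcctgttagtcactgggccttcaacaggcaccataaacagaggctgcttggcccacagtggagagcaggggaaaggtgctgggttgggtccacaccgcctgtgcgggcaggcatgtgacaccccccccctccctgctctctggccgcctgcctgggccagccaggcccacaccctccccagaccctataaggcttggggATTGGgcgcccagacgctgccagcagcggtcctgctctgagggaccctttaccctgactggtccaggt
Plin5: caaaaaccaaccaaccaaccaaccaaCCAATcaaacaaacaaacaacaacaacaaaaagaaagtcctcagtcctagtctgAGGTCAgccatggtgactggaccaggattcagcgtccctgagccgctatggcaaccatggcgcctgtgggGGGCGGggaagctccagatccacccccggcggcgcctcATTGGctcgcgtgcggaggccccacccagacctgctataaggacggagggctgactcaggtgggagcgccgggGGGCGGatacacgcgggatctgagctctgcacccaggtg
G0s2: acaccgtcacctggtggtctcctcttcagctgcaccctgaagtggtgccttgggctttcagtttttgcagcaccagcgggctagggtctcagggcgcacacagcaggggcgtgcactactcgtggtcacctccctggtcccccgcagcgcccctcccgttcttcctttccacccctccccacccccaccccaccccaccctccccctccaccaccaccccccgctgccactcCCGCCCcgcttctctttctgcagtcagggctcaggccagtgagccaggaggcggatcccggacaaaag
Plin2: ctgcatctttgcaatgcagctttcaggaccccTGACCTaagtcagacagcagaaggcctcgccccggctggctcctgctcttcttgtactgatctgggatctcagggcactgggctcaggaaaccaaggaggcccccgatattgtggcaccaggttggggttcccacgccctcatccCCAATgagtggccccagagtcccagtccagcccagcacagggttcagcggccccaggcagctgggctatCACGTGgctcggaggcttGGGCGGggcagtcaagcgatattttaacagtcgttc
Pnpla2: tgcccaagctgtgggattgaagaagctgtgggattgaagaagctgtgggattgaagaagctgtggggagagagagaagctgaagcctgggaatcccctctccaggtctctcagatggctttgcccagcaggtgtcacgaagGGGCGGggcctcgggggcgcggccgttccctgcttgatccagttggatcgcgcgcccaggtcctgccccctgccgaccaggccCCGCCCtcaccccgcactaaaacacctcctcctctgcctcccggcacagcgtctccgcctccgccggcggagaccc
Cidec: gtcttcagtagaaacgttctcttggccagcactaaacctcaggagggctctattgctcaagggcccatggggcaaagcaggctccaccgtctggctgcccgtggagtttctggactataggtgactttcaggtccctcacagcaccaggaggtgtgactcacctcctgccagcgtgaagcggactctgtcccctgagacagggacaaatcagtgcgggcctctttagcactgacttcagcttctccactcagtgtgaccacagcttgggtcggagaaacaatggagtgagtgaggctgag

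RefSeq gave 11 promoters for 9 of the genes, with a second start for *Plin5* and *Cidec*, and *Cidea* had no entry in the table. The GC box was present in 8 of these 11 promoters, against 35.7% of all 32851 promoters in the table. It was found in neither *Cidec* promoter nor that of *Plin4*. AGGTCA occurred in 4 of 11 (*Plin2*, both *Plin5* promoters and *Cd36*), against 16.3% of all promoters. CCAAT occurred in 5 of 11 (*Plin2*, *Plin3*, *Plin4*, the upstream *Plin5* promoter and *Cd36*), against 37.4%. The E-box was present in *Plin2* alone, with a background of 7.15%, and TATAAA in *Cideb* alone, with a background of 13.6%. Direct repeats of AGGTCA, in which each copy is also an AGGTCA match, were found in none of the 11 with a spacing of 1 base (DR1, 0.0396% of all promoters), 2 bases (DR2, 0.00913%) or 4 bases (DR4, 0.0152%). The C/EBP palindrome TTGCGCAA (0.183%) was not found in them either. The *Plin5* promoters overlap at their ends, so 1 GC box is counted in both, and the sequence of the downstream *Cidec* start holds none of these motifs. Both genes called down in the promoter-proximal region, *Plin4* and *Plin5*, hold CCAAT, as do *Plin2*, *Plin3* and *Cd36*, which were not called there. *G0s2*, which was called up there, holds no motif but the GC box, as does *Pnpla2*, which was not called. A match of letters is a description and does not show that a factor binds.

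In gene bodies, the droplet genes moved in both directions. *Plin2*, *Cidec* and *Cd36* were called up, *Plin4*, *Plin5*, *Cideb* and *Pnpla2* were called down, and *Plin3* was not called. Of 8 genes with at least 5 recovered reads in the region, 3 were thus called up, where 10.4% of active genes were, and 4 down, where 11.4% were. Their median log2 fold change was -0.33, against -0.09 over all active genes. *Cidea*, which was not active, and *G0s2*, whose gene body is only 29 bp long, were not tested in this region. For the 3 genes called up, the KO libraries lay above the WT libraries without overlap, as for 27.6% of active genes, and for the 4 called down they lay below, as for 42.8%. In either direction, 21.8% of active genes were called.

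**Figure D1:**
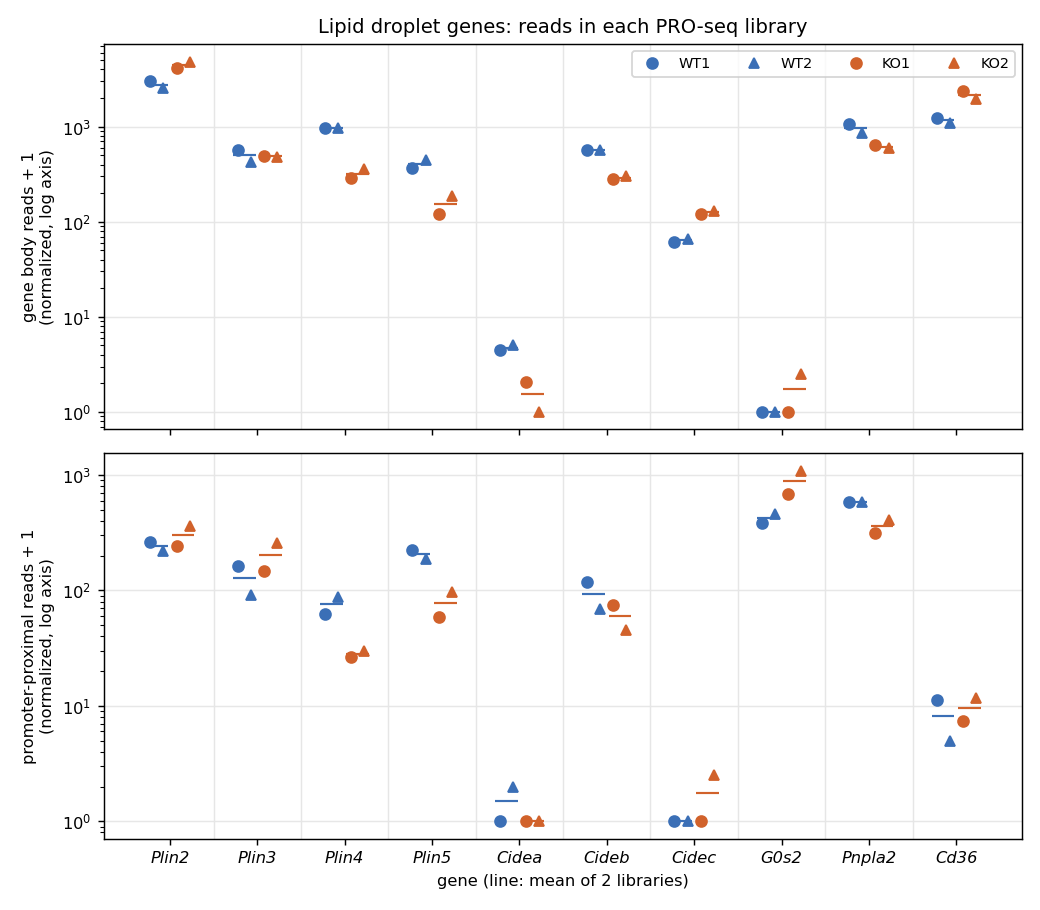
Normalized reads plus 1 (log axis) of each gene in each library, in gene bodies (top) and promoter-proximal windows (bottom); circles and triangles are libraries 1 and 2 of a genotype, and lines are the means of 2 libraries. *Plin2*, *Cidec* and *Cd36* gene bodies lie higher in both KO libraries and *Plin4*, *Plin5*, *Cideb* and *Pnpla2* lower in both, while in promoter-proximal windows *G0s2* lies higher and *Plin4*, *Plin5* and *Pnpla2* lower in both.

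Among the perilipins, *Plin2* (chr4:86656565-86670060 on GRCm38, minus strand) is the constitutive coat protein of hepatocyte droplets. Its gene body held 3001 and 2544 normalized reads in WT1 and WT2 and 4162 and 4849 in KO1 and KO2. Both KO libraries lay above both WT libraries, and the log2 fold change was 0.70 ± 0.12 (SE), 1.63-fold, with a limma adjusted p of 3.29e-05. It fell under the fold threshold without WT2 (0.58) or without KO2 (0.59). The single library pairs ranged from 0.47 (KO1 over WT1) to 0.93 (KO2 over WT2).

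*Plin4* (chr17:56100591-56109803, minus strand), a long perilipin best known from adipose tissue and muscle, showed the largest change of the 8 genes tested in gene bodies. Its gene body held 969 and 978 normalized reads in WT and 286 and 355 in KO libraries. The WT libraries were nearly equal, and both KO libraries were far below them. The log2 fold change was -1.61 ± 0.14 (limma adjusted p = 3.72e-09), that is, 3.05-fold lower.

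*Plin5* (chr17:56111601-56117596, minus strand), the perilipin of oxidative tissues that holds droplets near mitochondria, is the next gene upstream of *Plin4*. It held 364 and 443 normalized reads in WT and 119 and 187 in KO libraries. The genotypes did not overlap, and the KO libraries differed from each other more than those of *Plin4* did. The log2 fold change was -1.42 ± 0.19 (limma adjusted p = 2.52e-06), 2.68-fold lower. *Plin3* (chr17:56277476-56290511, minus strand), which also coats nascent droplets and was found as a sorting protein, held 567 and 429 reads in WT and 487 and 484 in KO libraries. Both KO values lay between the WT values, and the log2 fold change was -0.02 ± 0.15 (limma adjusted p = 0.923).

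*Plin4* begins 1798 bp downstream of the *Plin5* end on the same strand, and *Plin5* begins 2082 bp downstream of *Lrg1*, a secreted glycoprotein. Both upstream genes were called down in gene bodies. *Lrg1* held 119 and 138 reads in WT and 59.4 and 48.6 in KO libraries, a log2 fold change of -1.24 ± 0.23 (limma adjusted p = 1.42e-04), while its promoter-proximal value did not pass (-0.01, adjusted p = 0.983). Polymerases that run past a transcript end are counted in the next gene on the same strand, and the part of such reads in the *Plin4* and *Plin5* values was not tested. *Plin3*, on the same chromosome, has its nearest upstream gene, *Arrdc5*, 3600 bp away, and this gene held at most 1 read in any library and region.

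The CIDE genes differed among themselves. *Cideb* (chr14:55754050-55758458, minus strand), the hepatocyte member that also acts in VLDL lipidation, held 563 and 562 normalized reads in WT and 282 and 299 in KO libraries. Replicates were close to each other in both genotypes and far apart between them. The log2 fold change was -0.95 ± 0.14 (limma adjusted p = 9.74e-06), 1.93-fold lower.

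*Cidec* (chr6:113424636-113435756, minus strand), known in mice as *Fsp27*, enlarges droplets and is induced in fatty liver. Its gene body held only 60.8 and 65 reads in WT but 121 and 128 in KO libraries. The genotypes were well separated, and the log2 fold change was 0.97 ± 0.22 (limma adjusted p = 0.00115), 1.96-fold higher. A stricter filter on activity, with a cut of 10.3 normalized reads per kb, left *Cidec* out. *Cidea*, the member typical of brown adipose tissue, was nearly silent, with 3.44 and 4 normalized reads in WT and 1.06 and 0 in KO libraries over a 23231 bp gene body. In the promoter-proximal window it had 1 read in WT2 and none in the other libraries, so no comparison was made.

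In the lipolysis arm, *Pnpla2* (chr7:141455207-141460094, plus strand) held 1075 and 856 gene body reads in WT and 638 and 591 in KO libraries. Both KO libraries lay below both WT libraries. The log2 fold change was -0.64 ± 0.13 (limma adjusted p = 4.66e-04), 1.56-fold lower, which is close to the fold threshold. It fell short of the threshold without WT1 (-0.48), without KO2 (-0.59) and with factors recomputed from gene bodies (-0.56). The nearest upstream gene on this strand, *Rplp2*, a ribosomal protein gene 3622 bp away, was not called in the gene body (-0.27 ± 0.17, limma adjusted p = 0.219).

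*Cd36* (chr5:17782367-17888747, minus strand), which takes up long-chain fatty acids, held 1247 and 1093 gene body reads in WT and 2368 and 1957 in KO libraries over 106270 bp. The lowest KO library lay well above the highest WT library. The log2 fold change was 0.88 ± 0.12 (limma adjusted p = 3.15e-06), 1.84-fold higher. *Cd36* is also made by endothelial cells and macrophages of the liver. Of 7 endothelial markers, 5 were called up, with summed gene body reads of 55127 to 59602 in WT and 92795 to 104026 in KO libraries. Of 8 Kupffer cell markers, limma, edgeR and DESeq2 each called 0 in gene bodies with the deposited factors. With factors recomputed from gene bodies (median of ratios or TMM), limma called 1 up. At an unadjusted p under 0.05 with the deposited factors, limma had 4 of 8 up, and 2504 of 12705 active genes. The Kupffer cell sums were 19779 to 19875 in WT and 21399 to 25731 in KO libraries. The part of these cells in the *Cd36* result was not tested, and in bulk nuclei more cells of a type and more transcription per cell cannot be told apart.

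**Figure D2:**
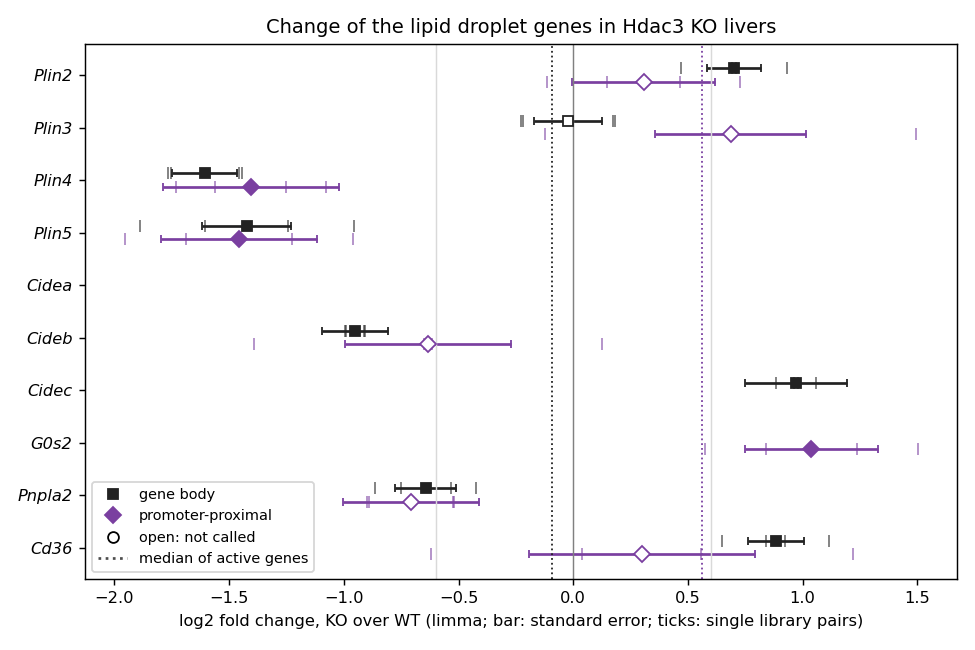
Log2 fold change of KO over WT from limma for gene bodies (squares) and promoter-proximal windows (diamonds), with bars of 1 SE, thin ticks for the 4 single library pairs, filled symbols for calls and dotted lines at the median of all active genes (-0.09 and 0.56). *Plin4* and *Plin5* lie left of zero in both regions, and *G0s2* is the only gene filled on the right in the promoter-proximal region.

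Compared per kb, the genes spanned a wide range of gene body levels, and their order differed between genotypes. In WT livers *Plin2* was highest (222 ± 25.9 normalized reads per kb, SD, n = 2), but its libraries overlapped those of *Pnpla2* (212 ± 34.0). *Cideb* (167 ± 0.281), *Plin4* (119 ± 0.732), *Plin5* (81.5 ± 11.3), *Plin3* (47.2 ± 9.23), *Cd36* (11.0 ± 1.03) and *Cidec* (6.22 ± 0.293) followed, each without overlap with the next. *Plin2* lay above 96.3% of active genes and *Cidec* above 6.11%, and the median active gene had 37.7 reads per kb.

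In KO livers *Plin2* stood alone at 361 ± 38.9 normalized reads per kb, above 98.7% of active genes. *Pnpla2* (135 ± 7.28) and *Cideb* (86.2 ± 3.55) kept the next ranks. *Plin4* (39.1 ± 5.93) and *Plin5* (30.9 ± 9.71), whose libraries overlapped each other, now lay below *Plin3* (46.0 ± 0.172) and near the median active gene (35.5). *Cd36* (20.3 ± 2.73) and *Cidec* (12.3 ± 0.462) remained the lowest of the genes measured in gene bodies, although their levels were higher than in WT livers. In both genotypes the *Cd36* level is a mean over 106270 bp. Its counted start lies 52851 bp upstream of the RefSeq start, so its level and rank per kb depend on the start used.

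**Figure D3:**
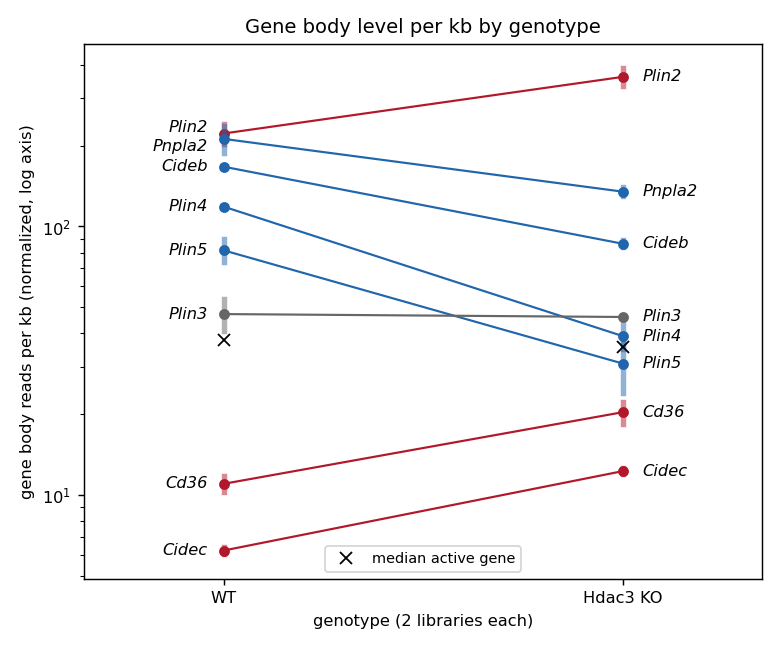
Gene body level in normalized reads per kb (log axis) in WT and Hdac3 KO livers. Points are means of 2 libraries, vertical bars run from the lower to the higher library, and crosses mark the median active gene. Red and blue lines are genes whose KO libraries lie above and below the WT libraries without overlap, and the grey line is a gene with overlap. The red and blue genes are also those called up and down. *Plin4* and *Plin5* cross below *Plin3* in KO livers, and *Plin2* rises away from *Pnpla2*.

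In promoter-proximal windows fewer of the genes passed. *G0s2* was called up, *Plin4* and *Plin5* were called down, and *Plin2*, *Plin3*, *Cideb*, *Pnpla2* and *Cd36* were not called. *G0s2* counts as active through a single gene body read in KO2, where its promoter-proximal value is also highest, so without it 0 of 7 genes were called up by limma (1 at an unadjusted p under 0.05) and 2 down, with a median log2 fold change of -0.63. With it, this is 1 of 8 genes up, where 25.8% of active genes were called up, and 2 of 8 down, where 2.2% were called down and 28% in either direction. Their median log2 fold change was -0.17, against 0.56 over all active genes. With factors computed from promoter-proximal windows (median of ratios), 634 active genes were called up and 942 down, instead of 3282 and 280, and of the 8 genes 0 were called up (1 at an unadjusted p under 0.05, limma) and 4 down. In 3 of 8 genes (*Plin4*, *Plin5* and *Pnpla2*) the KO libraries lay below the WT libraries without overlap, as in 6.72% of active genes, and in *G0s2* they lay above, as in 61.9%.

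*G0s2* (chr1:193272161-193273217, minus strand), the protein inhibitor of ATGL, is so short that it is measured in the promoter-proximal window alone. It held 382 and 459 normalized reads in WT and 684 and 1084 in KO libraries. The genotypes did not overlap, and KO2 was higher than KO1, as it was for most active genes, whose median difference between these libraries was 0.36 on the log2 scale. The log2 fold change was 1.04 ± 0.29 (limma adjusted p = 0.00404), 2.05-fold higher, or 0.48 above the median of active genes. The call was lost without WT1 (adjusted p = 0.167), WT2 (0.0949) or KO2 (0.141), and also with factors computed from promoter-proximal windows (log2 fold change 0.47, adjusted p = 0.160). Its gene body of 29 bp held 1 read, in KO2, through which it passed the filter on active genes.

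*Plin4* held 62.0 and 87 promoter-proximal reads in WT and 25.5 and 28.8 in KO libraries. The genotypes did not overlap, and the log2 fold change was -1.41 ± 0.38 (limma adjusted p = 0.00326), or -1.97 relative to the median of active genes. The adjusted p was 0.0570 without WT1, 0.225 without WT2 and 0.0677 without KO2. *Plin5* held 225 and 187 reads in WT and 57.3 and 95.7 in KO libraries, also without overlap. Its log2 fold change was -1.46 ± 0.34 (limma adjusted p = 3.95e-04), or -2.02 relative to the median, and the adjusted p was 0.104 without WT1 and 0.0515 without WT2. In both genes the promoter-proximal and the gene body change differed by less than 1 SE of the pausing index given below.

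*Pnpla2* held 586 and 583 promoter-proximal reads in WT and 314 and 407 in KO libraries. Both KO values lay below the WT values, but the limma adjusted p was 0.0568 (log2 fold change -0.71 ± 0.30). It was called down with factors computed from promoter-proximal windows (-1.28, adjusted p = 1.24e-04), as was *Cideb* (-1.19, adjusted p = 0.0174). With the deposited factors, *Pnpla2* was also called down by DESeq2 on recovered reads (-0.70, DESeq2 adjusted p = 0.0478). The same held for limma with a pseudocount of 10 (-0.69, limma adjusted p = 0.0498). *Cideb* held 117 and 68 reads in WT and 74.3 and 44.0 in KO libraries, with overlap between the genotypes (-0.63 ± 0.36, limma adjusted p = 0.160 with the deposited factors).

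*Plin2* held 262 and 218 promoter-proximal reads in WT and 242 and 361 in KO libraries, and KO1 lay between the WT libraries. Its log2 fold change was 0.31 ± 0.31 (limma adjusted p = 0.437) with the deposited factors and -0.26 with factors computed from promoter-proximal windows. *Plin3* held 161 and 91 reads in WT and 147 and 258 in KO libraries, where KO2 alone exceeded both WT libraries (0.69 ± 0.33, limma adjusted p = 0.0951).

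The remaining promoter-proximal values were low. *Cd36* held 10.3 and 4 reads in WT and 6.36 and 10.6 in KO libraries (0.30 ± 0.49, limma adjusted p = 0.639), and its RefSeq promoter lies 52851 bp downstream of the start used for counting. *Cidec* held 1 read, in KO2, and no read in the other libraries, and its second RefSeq start lies 992 bp downstream of the counted start, outside the window. As the gene body is counted from 1 kb downstream of the counted start, reads just downstream of these second starts are part of the *Cidec* and *Cd36* gene body values, and their share in them was not tested.

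The pausing index, the density of promoter-proximal reads over that of gene body reads, did not pass the test for any of the 7 genes measured in both regions. Over all active genes limma called it up in 14.6% and down in 0.307% (14.9% in all), with a median log2 fold change of 0.61, and the median over the 7 genes was -0.03. Among the 7, no unadjusted p was under 0.05, and the lowest was 0.0643, for *Plin3*. The *Plin3* index was 59.8 and 44.8 in WT and 63.9 and 112 in KO libraries (log2 fold change 0.71 ± 0.38, limma adjusted p = 0.161), higher in both KO libraries. That of *Plin2* was 21.8 and 21.4 in WT and 14.5 and 18.6 in KO libraries, lower in both (-0.39 ± 0.37, adjusted p = 0.411).

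The other indices overlapped between genotypes. *Plin5* had the smallest difference, with 61.2 and 41.8 in WT and 47.7 and 50.7 in KO libraries (-0.03 ± 0.39, limma adjusted p = 0.950). The index of *Plin4* was 10.5 and 14.6 in WT and 14.6 and 13.3 in KO libraries (0.20 ± 0.43), and that of *Pnpla2* 49.7 and 62.1 against 44.9 and 62.8 (-0.06 ± 0.35). *Cideb* had 14.0 and 8.16 against 17.7 and 9.92 (0.32 ± 0.41), and *Cd36*, from few reads, 17.6 and 7.78 against 5.71 and 11.5 (-0.58 ± 0.53). The *Cd36* index is that of the counted start, not of the RefSeq start. The SEs of the 7 genes ranged from 0.35 to 0.53 on the log2 scale.

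The deposited list of 2282 enhancers, made from the reads of all libraries together, held an enhancer closest to each of the genes *Plin2* and *Cd36*. The *Plin2* enhancer spans 3435 bp at chr4:86688579-86692014, 18520 bp from the TSS, and that of *Cd36* spans 1635 bp at chr5:17923361-17924996, 34402 bp from the TSS. From the RefSeq start of *Cd36*, the center of its enhancer is 88.7 kb away, beyond the 50 kb within which the list ties enhancers to genes. Both lie upstream of their genes, have 1 center and are marked as absent from FANTOM5. The other 8 genes had none as closest gene or within 50 kb, and 7 of the 10 genes were tied to enhancers by 4DGenome contacts, from 1 for *Cideb*, *Cidec* and *Pnpla2* to 4 for *Plin3*. The shares of all active genes with such enhancers or contacts were not counted. The list has no values per library, so a change of these enhancers was not analysed here.

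Other genes of triglyceride storage were taken from 5 lists. Of their 65 genes 62 were active, of which 7 were called up and 16 down in gene bodies (median log2 fold change -0.32) and 10 up and 5 down in promoter-proximal windows (median 0.08). The shares of all active genes given above for each direction are the background to these counts. The genes named below are those with the largest called change in each direction and region of a list, and, where a count is 5 or fewer, the other genes counted, which were named after their values were seen. With each library left out in turn, 17 of the 23 gene body calls were kept in all 4 fits. Of the 15 promoter-proximal calls 0 were kept in all 4, and 5 (*Tmem159*, *Fitm2*, *Hsd17b13*, *Lpin3* and *Rora*) in none.

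Among 9 active genes of droplet formation and surface, *Plin1* and *Tmem159* were called up and *Hsd17b11* down in gene bodies. *Plin1*, the perilipin of adipocytes, held 34.4 and 39 reads in WT and 65.8 and 117 in KO libraries (1.24 ± 0.29, limma adjusted p = 0.00129). Without KO2 it was not called (0.83, adjusted p = 0.104). The *Plin1* mean over all libraries was 6.03 gene body reads per kb, and its WT mean lay under the cut on activity. It thus counts as active only through the KO libraries, and the stricter filter on activity left it out. *Plin1* was also the only active marker of 6 for adipocytes. The other 5 had under 1 read per kb, and the adipocyte sum was 44.7 to 50 in WT and 74.3 to 137 in KO libraries, most of it *Plin1* itself. *Tmem159*, the partner of seipin at droplet formation, rose by 0.81 ± 0.18 in gene bodies (adjusted p = 8.13e-04) and 1.11 ± 0.36 in promoter-proximal windows (adjusted p = 0.0132), where *Fitm2* was also called up (0.83). With factors computed from promoter-proximal windows these values were 0.54 (adjusted p = 0.238) and 0.27 (adjusted p = 0.550). *Hsd17b11* had a gene body log2 fold change of -0.92 ± 0.15 (adjusted p = 2.93e-05), which was -0.60 and just under the fold threshold without WT1. Its droplet-bound relative *Hsd17b13* was called down in promoter-proximal windows only (-1.06 ± 0.37, adjusted p = 0.0217; gene body -0.10, adjusted p = 0.579). Without WT1 that value was -0.58 (adjusted p = 0.497).

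Of 13 active genes of triglyceride synthesis, 3 were called down and 1 up in gene bodies. *Lpin1*, the phosphatidate phosphatase that makes diacylglycerol, held 18610 and 13655 reads in WT and 4028 and 3193 in KO libraries. Its log2 fold change was -2.15 ± 0.13 (limma adjusted p = 3.78e-11) in the gene body and -1.70 ± 0.38 (adjusted p = 1.90e-04) in the promoter-proximal window, where the adjusted p was 0.108 without WT1. *Dgat2* (-1.23), which adds the last fatty acid, and *Agpat2* (-0.79) were the others called down. *Gpat2* rose by 1.79 ± 0.27 (adjusted p = 8.80e-06) from 31.0 and 27 to 92.3 and 114 reads, a low level that a stricter filter on activity left out. *Lpin3* was called up in the promoter-proximal window only (1.19 ± 0.45, adjusted p = 0.0360), with 8.03 to 21.3 reads per library. With factors computed from promoter-proximal windows it was 0.66 (adjusted p = 0.319).

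Of 9 active genes of triglyceride breakdown other than *Pnpla2*, 1 was called in each direction in gene bodies. The carboxylesterase *Ces1g* rose by 1.98 ± 0.17 in the gene body (limma adjusted p = 2.94e-09) and 1.50 ± 0.35 in the promoter-proximal window (adjusted p = 4.11e-04). It belongs to a cluster of similar genes whose reads can be shared, so its values are uncertain, and its promoter-proximal change was 0.95 (adjusted p = 0.268) without WT2 and 1.26 (adjusted p = 0.129) without KO2. *Aadac*, a lipase of the endoplasmic reticulum, had log2 fold changes of -1.52 ± 0.16 (adjusted p = 5.53e-08) and -1.44 ± 0.34 (adjusted p = 6.42e-04) in the same order, and the promoter-proximal call was lost without WT1, WT2 or KO2 (adjusted p 0.0524 to 0.115). *Hilpda*, an inhibitor of ATGL like *G0s2*, was called up in the promoter-proximal window (0.85 ± 0.33, adjusted p = 0.0416) and not in the gene body (0.48, adjusted p = 0.177). The promoter-proximal call was lost with factors computed from these windows (0.28, adjusted p = 0.496).

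Of 14 genes of fatty acid uptake, activation and binding, all active, 2 were called up and 5 down in gene bodies. *Acsl1*, the main acyl-CoA synthetase of liver, held 30488 and 28989 reads in WT and 12578 and 13294 in KO libraries (-1.20 ± 0.12, limma adjusted p = 1.68e-08), and its promoter-proximal value was also called down (-1.18 ± 0.30, adjusted p = 0.00173). Without KO1 the promoter-proximal change was -0.60 (adjusted p = 0.0993), and the adjusted p was 0.117 without WT1 and 0.0985 without WT2. The transporters *Slc27a2* (-0.84) and *Slc27a5* (-1.01), the binding protein *Fabp5* (-0.92) and the lipase *Lpl* (-0.82) were the others called down in gene bodies. Without WT1 the value of *Slc27a2* was -0.43, without WT2 that of *Fabp5* was -0.58, and *Slc27a2* was not called by DESeq2 (adjusted p = 0.0671). *Fabp4*, a binding protein of adipocytes, endothelial cells and macrophages, held 168 and 250 reads in WT and 571 and 541 in KO libraries (1.44 ± 0.17, adjusted p = 4.48e-07) and was called up in promoter-proximal windows as well (1.95 ± 0.35, adjusted p = 2.59e-06; 0.0517 without KO2). *Vldlr*, the other gene called up, had a gene body log2 fold change of 0.79, which was 0.56 without WT2 and 0.58 without KO2. In promoter-proximal windows *Vldlr* (1.81) and *Slc27a1* (1.44) were called up too, and with factors computed from these windows *Slc27a1* was not (0.87, adjusted p = 0.0519). The *Vldlr* value there was 1.22 (adjusted p = 0.198) without WT2 and 1.34 (adjusted p = 0.158) without KO2. The endothelial sums given for *Cd36* moved with *Fabp4* too, and their part was not tested.

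Of 17 regulators, all active, 1 was called up and 6 down in gene bodies. The coactivator *Ppargc1a* held 7414 and 7199 reads in WT and 1770 and 1351 in KO libraries (-2.24 ± 0.12, limma adjusted p = 3.73e-12; promoter-proximal -1.26 ± 0.33, adjusted p = 0.00237). The promoter-proximal call was lost without WT1 (adjusted p = 0.169) or WT2 (0.0883). *Nr1d1*, the repressor REV-ERBα that recruits HDAC3 through NCoR, rose by 0.83 ± 0.14 in the gene body (adjusted p = 5.85e-05), a value that was 0.57 and under the fold threshold without WT2. *Rora*, an activator that binds the same sites, was called up in promoter-proximal windows (1.03 ± 0.34, adjusted p = 0.0167), as was *Srebf1* (0.89), while the gene body log2 fold change of *Rora* (-0.52) missed the fold threshold. With factors computed from promoter-proximal windows *Rora* was at 0.46 (adjusted p = 0.290) and *Srebf1* at 0.32 (adjusted p = 0.385).

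**Figure D4:**
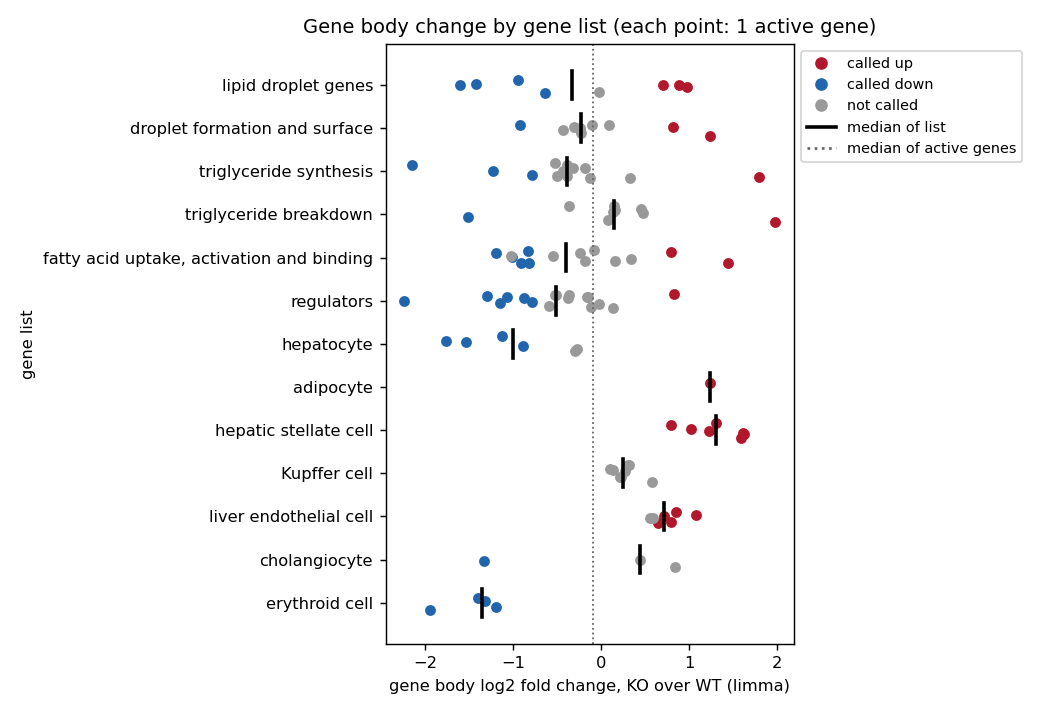
Gene body log2 fold change of each active gene, by list, with short black lines at list medians and the dotted line at the median of all active genes (-0.09). The droplet genes and the storage lists hold calls in both directions, whereas all 7 stellate cell markers lie right of the dotted line and all 4 erythroid markers left of it.

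Markers of liver cell types moved as well. Of 6 hepatocyte markers, 4 were called down in gene bodies (median log2 fold change -1.01), with sums of 124784 and 132876 reads in WT and 70441 and 72010 in KO libraries. All 7 hepatic stellate cell markers were called up (median 1.30), with sums of 9513 and 10800 against 20930 and 19206. Stellate cells store retinyl esters in droplets of their own. The 4 erythroid markers in the table that were active were called down, with sums of 762 and 950 against 338 and 296. Of 3 active cholangiocyte markers, *Sox9* was called down in gene bodies (-1.33), while *Krt19* (0.83) and *Spp1* (0.44) were not called and had a change above zero. In promoter-proximal windows *Krt19* was called up (1.33) and *Sox9* down (-1.12). The *Krt19* mean over all libraries was 4.85 gene body reads per kb, and its WT mean lay under the cut of 4. It thus counts as active only through the KO libraries. The 4 hepatocyte markers called down and the erythroid markers had the sign of *Plin4*, *Plin5*, *Cideb* and *Pnpla2*. Among the cholangiocyte markers *Sox9* had this sign too, and *Krt19* and *Spp1* did not. The stellate and endothelial markers called up had the sign of *Plin2*, *Cidec* and *Cd36*. Any called gene shares its sign with some of the droplet genes, so a match in sign does not tell causes apart. The part of cell makeup in these results was not tested.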

How the data were processed

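PRO-seq was performed on nuclei of WT and *Hdac3* KO mouse livers, with 2 pooled libraries per genotype. The authors trimmed reads with cutadapt, used Bowtie2 for alignment to mm10, discarded ribosomal and poorly mapped reads, and counted the rest with NRSA over 20820 RefSeq transcripts. The deposited values are counts for WT2, whose factor is 1, and normalized signal for the other libraries, the authors' counts times 1 factor per library. Values on genes came from 16628518 to 26190040 reads. The paper's other assays and cell lines were not analysed here, and columns of the authors' own comparisons were not used.

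Log2(normalized reads + 1) was compared with limma 3.58.1 (R 4.3.3) with an intensity trend and without a block, and p-values were adjusted by Benjamini-Hochberg over the 12705 active genes. The test for the pausing index replaced the paper's Cochran-Mantel-Haenszel test, which takes reads as independent. Alternatives used edgeR 4.0.16 and DESeq2 1.42.0 on recovered reads, other pseudocounts (0.1 and 10), filters, scalings, thresholds, blocks and transcripts, and left out each library. An exact permutation test of 2 against 2 libraries cannot go below p = 0.33 (two-sided), so none was used. Libraries with the same number were compared as unpaired, since nothing in the labels ties them. The minimum of 5 recovered reads for a gene to be reported as tested was set after the values were seen.

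The genes named are all 10 droplet genes, *Hdac3*, the nearest upstream gene on the same strand within 10 kb, and in each list and region the largest called rise and fall. The other list genes named belong to counts of 5 or fewer or, for *Srebf1*, *Cebpb* and *Ppara* in the closing section, were chosen after their values were seen. The genes and lists were chosen with earlier results of these data known. *Gpat3* and *Gpat4* are listed as *Agpat9* and *Agpat6*, and *Adgre1* as *Emr1*. Positions are those of the matching GENCODE M21 transcripts on GRCm38, and promoters are from RefSeq. Tables and plots were made with Python 3.11.15, pandas 2.3.3 and matplotlib 3.10.9.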

Additional observations from a re-analysis of the deposited data

How the results depend on the processing

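Gene body calls of the 7 droplet genes did not change with a replicate block, with edgeR or DESeq2 on recovered reads, or with either pseudocount. The stricter filter on activity left out *Cidec*, and limma then called 2 droplet genes up and 4 down in gene bodies. Without a filter on activity, limma on 20642 genes called 0 droplet genes up and 2 down in gene bodies (3 and 4 at an unadjusted p under 0.05) and 0 up and 0 down in promoter-proximal windows (1 and 3). Of the 62 list genes it then called 0 up and 4 down in gene bodies (5 and 22 unadjusted) and 0 in either direction in promoter-proximal windows (10 and 3). At an absolute log2 fold change over 1, 0 droplet genes were called up and 2 down, and 4 list genes up and 9 down, in gene bodies. With no fold threshold 26 list genes were called down. The other counts below are for promoter-proximal windows unless a region is named.

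Factors computed within each region (median of ratios or TMM) moved the median of active genes from 0.56 to 0.00. They gave 0 droplet genes up (1 unadjusted) and 4 down, and 3 list genes up and 18 down, and 1 droplet gene (*Plin2*, -1.04) was then called down in the pausing index. They also reversed the sign of *Plin2* (-0.26) and *Cd36* (-0.20), of the pausing indices of *Plin4* (-0.44 by median of ratios, -0.43 by TMM) and *Cideb* (-0.32), and of the *Plin3* gene body (0.059 by median of ratios, also from gene bodies, and 0.057 by TMM). Over all active genes, calls up and down went from 3282 and 280 to 634 and 942 by median of ratios and 638 and 949 by TMM, and in the pausing index from 1851 and 39 to 44 and 84 and to 56 and 102. With a pseudocount of 10, 1 pausing index was called down (*Cd36*, -0.75), that of *Plin5* turned to 0.019, and 171 active genes were called down in the pausing index.

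The replicate block changed no call of a droplet gene. It left 5 list genes up, with the calls of *Fitm2*, *Hilpda*, *Lpin3*, *Rora* and *Srebf1* lost, as was that of *Hsd17b13* (down), and 1772 active genes up and 177 down, and 136 up and 3 down in the pausing index. The residuals of same-numbered libraries correlated at -0.11 (promoter-proximal) and 0.02 (gene body), with 2 pairs only. Crossed pairing, chosen after seeing the data, gave 2 droplet genes up and 3 down, 8 list genes down, and 4425 active genes up and 70 down in the pausing index. When no activity filter was set, limma called 0 of 20642 genes in promoter-proximal windows (4179 up and 427 down unadjusted) and in the pausing index (3656 and 521), and 406 up and 589 down in gene bodies. Gene body calls over all active genes were 2161 up and 2807 down with no fold threshold, and 498 and 648 over 1. The promoter-proximal calls were 1956 up over 1, and 166 down by DESeq2.

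With each library left out in turn, droplet genes called ranged from 0 to 1 up and 0 to 2 down, and from 0 to 1 up in the pausing index (*Plin3*, 1.11 without KO1). List genes ranged from 0 to 6 up and 0 to 3 down. Active genes ranged from 319 (without KO2) to 3522 up and 83 to 182 down, and from 21 to 5937 up in the pausing index. Values that reversed were those of *Plin3* in the gene body (-0.22 to 0.18), *Cd36* (-0.29 to 0.89), and the pausing indices of *Plin4* (-0.034 to 0.44), *Plin5* (-0.31 to 0.24), *Cideb* (-0.094 to 0.73) and *Pnpla2* (-0.31 to 0.18). Where a genotype is left with 1 library, that library is assumed to vary like those of the other genotype. The cause of these differences was not tested. Of the droplet genes tested in promoter-proximal windows, *Cd36* had the fewest reads (4 to 10.6 normalized reads per library).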

Other observations

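*Srebf1*, the regulator of fatty acid synthesis, held 5285 and 6512 gene body reads in WT and 2884 and 3538 in KO libraries (log2 fold change -0.88 ± 0.12, limma adjusted p = 3.58e-06), while its promoter-proximal reads were 330 and 228 against 434 and 595 (0.89 ± 0.30, adjusted p = 0.0191). The latter call was lost without WT1, WT2 or KO2 (adjusted p 0.0942 to 0.406) and with factors computed from promoter-proximal windows (0.32). *Cebpb*, a factor of acute phase and adipogenic genes, held 208 and 233 gene body reads in WT and 78.5 and 100.2 in KO libraries (-1.30), while its promoter-proximal value did not pass (0.22, adjusted p = 0.547). *Ppara*, the receptor that drives fatty acid oxidation, had a gene body log2 fold change of -1.07 with 26070 and 22004 reads in WT and 10974 and 11881 in KO libraries, and its promoter-proximal value had the same sign and did not pass (-0.49, adjusted p = 0.200). These genes were chosen after their values were seen, and the difference between regions is not reported for them.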
